A study of Mus musculus with 20 samples.

Results

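The proteasome subunits are the genes whose single platform symbol is Psma, Psmb, Psmc, Psmd or Psme followed by a number. There were 42 of them among the 18194 genes measured, each read from its brightest probe set on an Affymetrix expression array. They comprise 8 genes of the 20S alpha ring (Psma1 to Psma8), 11 of the 20S beta ring (Psmb1 to Psmb11), 6 ATPases of the 19S cap (Psmc1 to Psmc6), 11 other cap subunits (Psmd1, 2, 3, 4, 6, 7, 8, 11, 12, 13 and 14), 3 chaperones of cap assembly (Psmd5, Psmd9 and Psmd10) and 3 activators (Psme1, Psme3 and Psme4). The immune subset was defined as Psmb8, Psmb9, Psmb10, Psme1 and Psme2. Of these 5 genes, 4 were measured: the probe set of Psme2 also carries the symbol Psme2b, so no value is given for Psme2. The other 38 genes are called the other subunits here. Psmc3ip and Psme3ip1, which begin with the same letters but encode interacting proteins, were left out.

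The proteasome degrades proteins marked with ubiquitin. Its 20S core is a barrel of alpha rings, which gate the entrance, and beta rings, which hold the proteolytic sites, and the 19S cap recognises, unfolds and feeds in the substrate. Under interferon gamma, cells exchange the catalytic beta subunits Psmb5, Psmb6 and Psmb7 for Psmb8 (LMP7), Psmb9 (LMP2) and Psmb10 (MECL-1), and Psme1 and Psme2 form the PA28 activator that opens the barrel. The resulting immunoproteasome favours peptides that fit MHC class I molecules, and in brain it is known mainly from glia and infiltrating immune cells.

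The arrays came from female C57Bl6 mice with experimental autoimmune encephalomyelitis (EAE), a model of multiple sclerosis, and from healthy cage mates. EAE had been induced at 8 to 12 weeks of age by 100 µg of the myelin peptide MOG35-55 under the skin of the rear flanks and a further 50 µg near the tail, with pertussis toxin given at 400 ng on day 0 and again on day 3. The labels describe no mock injection of the healthy mice, so disease and the injected agents cannot be told apart. Motor and sensory cortex were dissected from 1 mm slices of the perfused brains of 6 EAE and 4 healthy mice, giving 20 arrays in 4 groups, with both regions from each of the 10 mice. The protocol sets collection at day 21. Labels of the EAE arrays, unlike those of the healthy ones, also give EAE days 18 to 21. EAE mice 1 to 6 carried average clinical grades of 2.50, 3.00, 2.75, 3.00, 3.50 and 3.50. Each of 2 cohorts held 3 EAE and 2 healthy mice. Values are deposited log2 expression, and the number of arrays limits their precision.

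The arrays were alike in scale, with medians between 8.22 and 8.32 and correlations of 0.988 to 0.998 within groups. Excitatory neuron markers, read for the cortical label, had a mean over the 5 measured genes between 12.52 and 12.91 on every array. The striatum, cerebellum and choroid plexus lists, for tissue that a dissection could carry along, had 0 genes called between EAE and healthy mice in either region. They hold 4, 4 and 3 measured genes, beside 2.25% of all genes called in motor and 2.41% in sensory cortex. So few genes would mostly give 0 calls at those shares. That comparison cannot show tissue carried along in all arrays alike. On every array the list means lay between 9.15 and 9.79 for striatum, 7.63 and 8.13 for cerebellum, and 7.73 and 8.19 for choroid plexus. Arrays of motor cortex of healthy mouse 4 and sensory cortex of healthy mouse 1 were the 2 processed on a second day.

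Upstream sequences are shown for the 3 immune genes with the highest EAE minus healthy differences and for the constitutive counterparts of Psmb8 and Psmb9, because Psmb8, Psmb9 and the neighbouring Tap1 were highest in the same EAE mice. Sequences are from the RefSeq table for GRCm38.p6, written 5′ to 3′ on the strand of the gene. Psmb8 lies on chromosome 17 between Tap1 and Tap2, and the 250 bases before its start (chr17:34197945-34198194, plus strand) hold the gamma-activated sequence (GAS) motif TTCNNNGAA, in capitals.
Psmb8: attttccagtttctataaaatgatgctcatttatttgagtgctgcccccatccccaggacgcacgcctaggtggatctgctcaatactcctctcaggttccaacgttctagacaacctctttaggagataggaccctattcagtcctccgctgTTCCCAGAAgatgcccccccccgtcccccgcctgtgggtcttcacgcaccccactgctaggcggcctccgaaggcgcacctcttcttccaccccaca
Psmb9 and Tap1 start 225 bases apart on opposite strands, and the whole stretch between their starts (chr17:34187331-34187555, minus strand) is shown with CCAAT, read on the other strand, in capitals.
Psmb9: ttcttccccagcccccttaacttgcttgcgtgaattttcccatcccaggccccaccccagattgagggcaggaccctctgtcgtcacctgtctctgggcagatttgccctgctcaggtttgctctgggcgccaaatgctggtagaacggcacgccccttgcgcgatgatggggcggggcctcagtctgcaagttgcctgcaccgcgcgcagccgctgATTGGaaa
Psme1 lies on chromosome 14 beside Emc9 and Psme2. No searched interferon motif is in the 250 bases before its start (chr14:55578244-55578493, plus strand), and the first 30 bases of the transcript (chr14:55578494-55578523) hold the core of the interferon-stimulated response element (GAAA and GAAA with any 2 bases between), read on the other strand, in capitals.
Psme1 upstream: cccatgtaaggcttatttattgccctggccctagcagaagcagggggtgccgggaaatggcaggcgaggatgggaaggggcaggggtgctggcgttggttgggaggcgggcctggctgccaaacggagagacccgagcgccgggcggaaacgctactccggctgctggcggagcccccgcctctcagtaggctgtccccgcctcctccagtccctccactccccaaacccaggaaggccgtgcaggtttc
Psme1 start: gagctgtgcTTTCGCTTTCccttcccgctg
For Psmb5 (chr14:54617996-54618245, minus strand) and Psmb6 (chr11:70525107-70525356, plus strand), the capitals mark TGACNNNGC, the core of the antioxidant response element.
Psmb5: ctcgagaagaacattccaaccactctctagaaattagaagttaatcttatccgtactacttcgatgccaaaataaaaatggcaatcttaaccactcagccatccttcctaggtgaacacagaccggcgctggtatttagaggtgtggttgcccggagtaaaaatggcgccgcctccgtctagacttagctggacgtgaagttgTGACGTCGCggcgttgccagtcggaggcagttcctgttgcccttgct
Psmb6: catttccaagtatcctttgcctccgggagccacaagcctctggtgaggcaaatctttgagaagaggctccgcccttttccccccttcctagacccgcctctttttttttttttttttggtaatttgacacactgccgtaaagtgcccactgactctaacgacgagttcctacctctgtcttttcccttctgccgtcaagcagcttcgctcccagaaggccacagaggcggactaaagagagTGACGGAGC

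Each motif was searched on both strands of 300 bases, 250 before and 50 after the start, in the 35 of 42 subunit genes and the 27025 genes of all kinds with an entry. The response element core was in 4 of the 35 subunit promoters (11.4%), those of Psme1, Psmd4, Psmd9 and Psmb3, against 3.99% of all genes. The GAS motif TTCNNNGAA was in those of Psmb8 and Psmd2 (5.71%), against 9.55%. The antioxidant element core TGACNNNGC was in 6 (17.1%), including those of Psmb5, Psmb6 and Psme4, against 14.0%. The core bound by nuclear respiratory factor NRF1, GCGCA and GCGC with 1 base between, was in 6 (17.1%), against 5.19%: Psma2, Psma3, Psma4, Psmc4, Psmc5 and Psmd14. The NF-kB letters, GGG and CC with any 5 bases between, were in 19 (54.3%), against 53.5%, and CCAAT was in 14 (40.0%), against 41.1%. These matches are letters in a window, and no binding was measured.

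In EAE, Psmb8 and Psmb9 had the highest log2 differences of the 42 subunits in both regions, and the other subunits lay near 0, but no subunit passed the test. Limma with the cohort as a covariate and Benjamini-Hochberg adjustment over all genes called 0 of 42 at an adjusted p under 0.05 in motor cortex, where it called 2.25% of all genes, and 0 of 42 in sensory cortex, where it called 2.41%. At an unadjusted p under 0.05 limma gave 3 subunits in motor cortex (7.14%, against 15.9% of all genes) and 4 in sensory cortex (9.52%, against 18.5%). The immune subset supplied 3 of these in each region: Psmb8, Psmb9 and Psme1. The fourth in sensory cortex was Psma6.

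Psmb8, the inducible counterpart of Psmb5, had motor cortex values of 8.74, 10.04, 8.97, 9.66, 10.56 and 9.19 in EAE mice 1 to 6. The healthy motor values, for mice 1 to 4, were 8.63, 9.02, 8.61 and 8.74. In sensory cortex the EAE values were 9.56, 10.81, 9.22, 9.51, 10.50 and 9.43, against healthy values of 8.87, 8.65, 8.56 and 8.76. EAE mice 2 and 5 were highest in both regions. In motor cortex 4 of 6 EAE arrays lay above every healthy array and mice 1 and 3 fell among them, whereas in sensory cortex the groups did not overlap. The EAE minus healthy difference in log2 was 0.77 ± 0.28 (SE; 6 EAE and 4 healthy mice) in motor cortex, with limma's adjusted p = 0.2, and 1.13 ± 0.30 in sensory cortex, with limma's adjusted p = 0.0803. In sensory cortex this was a 2.18-fold higher mean with a 95% interval of 0.47 to 1.79 in log2. RNA per cell and the number of expressing cells cannot be told apart in these pieces of cortex.

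Psmb9, the counterpart of Psmb6, followed nearly the same course. Its motor cortex values were 8.28, 9.62, 8.51, 9.38, 10.36 and 8.89 in EAE mice 1 to 6 and 8.26, 8.50, 8.30 and 8.39 in healthy mice 1 to 4. Its sensory values were 9.11, 10.43, 8.92, 9.13, 10.43 and 9.03 in EAE and 8.34, 8.30, 8.33 and 8.44 in healthy mice. Again mice 2 and 5 stood highest and sensory cortex showed no overlap, and in motor cortex only EAE mouse 1 failed to exceed every healthy array. The difference was 0.81 ± 0.30 (SE) in motor cortex (limma's adjusted p = 0.202) and 1.15 ± 0.32 in sensory cortex (limma's adjusted p = 0.0952).

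The calls for this pair turned on settings. The sensory difference of Psmb8 passed with a variance trend (limma's adjusted p = 0.0377), with 1 fit over all 20 arrays (0.032) and without EAE mouse 3 (0.0381). It also passed with the mean of its probe sets (limma's adjusted p = 0.0449, at a lower difference of 0.70) and with dim genes left out (0.0389). That filter used means over all 20 arrays, and Psmb8 passed it narrowly, at percentile 50.5 of genes (mean 9.30). Its healthy means, 8.75 in motor and 8.71 in sensory cortex, lie below the mean of Psmb9, 8.95, which was left out. Psmb8 was thus kept through its EAE values, and its call under this filter is no separate support. Psmb9 passed under the variance trend (limma's adjusted p = 0.0488) and the fit over all arrays (0.0401). Over all genes limma called 438 in sensory cortex in the main fit, 831 with the variance trend and 1015 in the fit over all arrays. It called 795 of fewer genes with dim genes left out, 411 with the mean of probe sets and 495 without EAE mouse 3. In motor cortex the Psmb8 difference was 0.42 within cohort 1 and 1.12 within cohort 2, and that of Psmb9 was 0.42 and 1.20. In sensory cortex the cohorts were alike, at 1.10 and 1.15 for Psmb8 and 1.16 and 1.14 for Psmb9. Without the second processing day, the motor differences were 0.72 and 0.74 and the sensory differences 1.17 and 1.16, for Psmb8 and Psmb9 in that order.

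**Figure D1:**
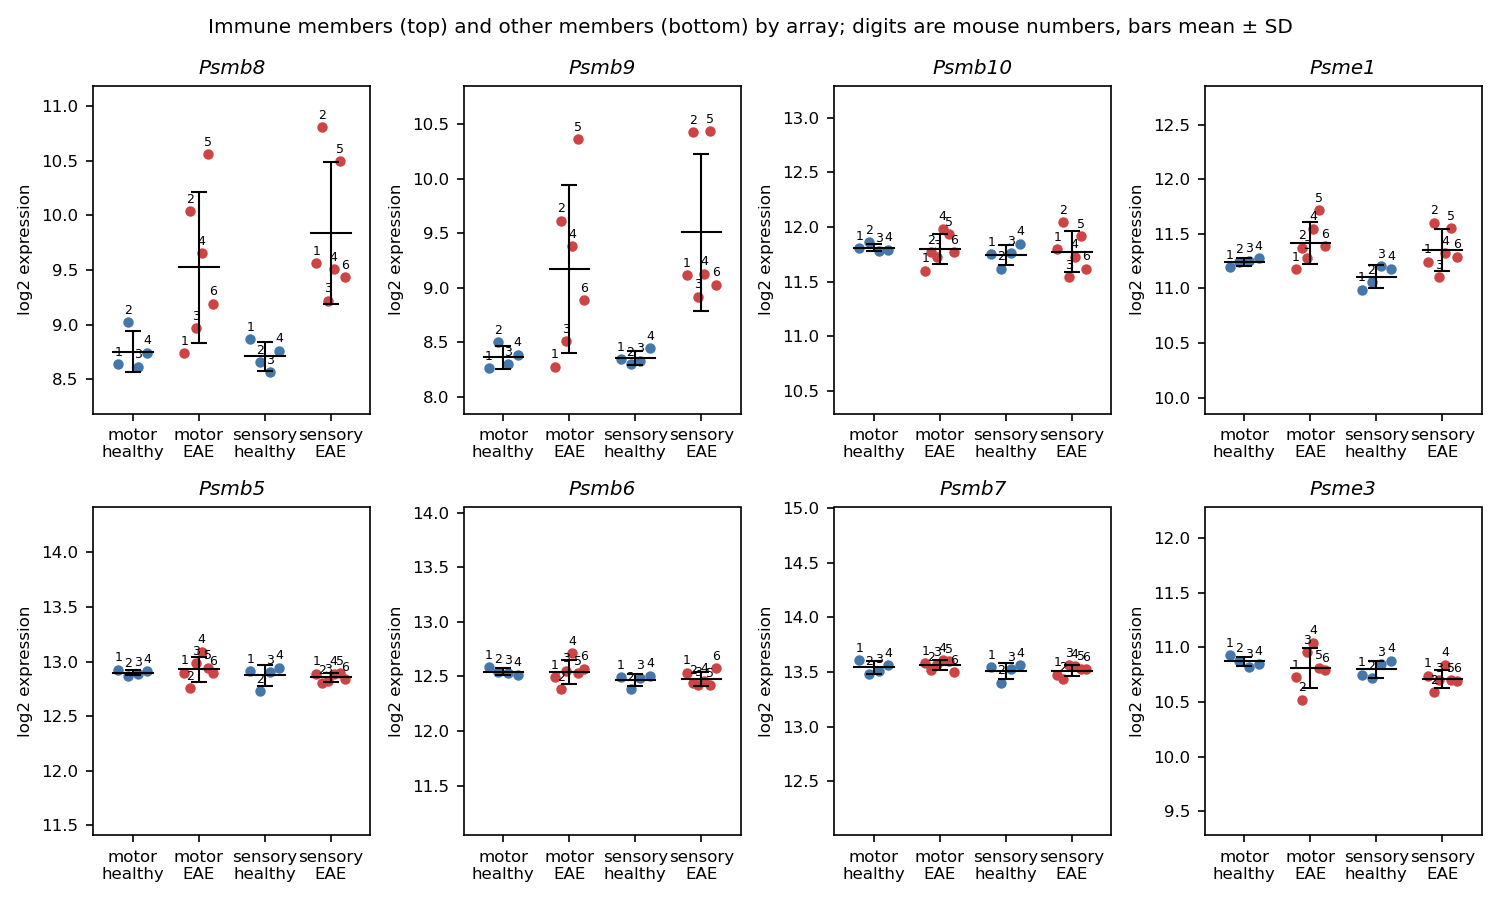
Log2 expression of the 4 measured immune genes (top) and of Psmb5, Psmb6, Psmb7 and Psme3 (bottom) on each array, with a vertical span of 3 log2 units in every panel; digits are mouse numbers and bars are the mean ± SD of 6 EAE or 4 healthy mice. EAE mice 2 and 5 are the highest for Psmb8 and Psmb9, above 10 except for the motor value of Psmb9 in mouse 2 at 9.62, and the EAE and healthy arrays of Psmb5, Psmb6 and Psmb7 overlap.

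Psme1, the alpha subunit of PA28, had motor cortex values of 11.17, 11.37, 11.28, 11.55, 11.72 and 11.39 in EAE mice and 11.20, 11.24, 11.25 and 11.28 in healthy mice. In sensory cortex it read 11.24, 11.60, 11.10, 11.32, 11.55 and 11.29 in EAE and 10.99, 11.06, 11.21 and 11.18 in healthy mice. In each region 5 of 6 EAE arrays were above every healthy array. The exceptions were mouse 1 in motor cortex, just below the healthy arrays, and mouse 3 in sensory cortex, among them. The differences were 0.17 ± 0.08 (SE; limma's adjusted p = 0.298) and 0.24 ± 0.09 (limma's adjusted p = 0.198).

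Psmb10, the counterpart of Psmb7 and the third inducible catalytic subunit, lies apart from that pair, on chromosome 8, and its differences were close to 0. Its motor values were 11.60, 11.77, 11.72, 11.98, 11.93 and 11.77 in EAE mice and 11.81, 11.86, 11.79 and 11.79 in healthy mice, so 2 EAE arrays lay above the healthy range and 4 below it. In sensory cortex EAE values ran from 11.54 in mouse 3 to 12.04 in mouse 2 and healthy values from 11.62 to 11.85. The differences were -0.01 ± 0.07 (SE; limma's adjusted p = 0.947) and 0.03 ± 0.10 (limma's adjusted p = 0.888), with 95% intervals of -0.16 to 0.14 and -0.19 to 0.25. The sign of its difference turned in 7 of 21 alternative settings in motor cortex, quantile normalization and median centring among them, and in 3 of 21 in sensory cortex.

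The other catalytic subunits gave small values. Psmb5 differed by 0.03 ± 0.06 (SE) in motor and -0.02 ± 0.05 in sensory cortex, Psmb6 by -0.01 ± 0.06 and 0.01 ± 0.05, and Psmb7 by 0.02 ± 0.05 and 0.00 ± 0.05, with limma's adjusted p between 0.865 and 0.982 in motor and 0.873 and 0.972 in sensory cortex. The healthy values of Psmb5 ran from 12.87 to 12.93 in motor cortex, inside an EAE range of 12.76 to 13.09. Taken as a difference within each array, which cancels a shift common to it, Psmb8 minus Psmb5 was higher in EAE by 0.74 in motor cortex (SD between EAE mice 0.71) and 1.14 in sensory cortex (SD 0.66), with 4 of 6 and 6 of 6 EAE arrays above every healthy array. For Psmb9 minus Psmb6 the shifts were 0.81 (SD 0.79) and 1.14 (SD 0.75), again with 4 of 6 and 6 of 6. For Psmb10 minus Psmb7 they were -0.04 (SD 0.13) and 0.03 (SD 0.23), with 1 of 6 and 3 of 6 above.

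Across the 38 other subunits the motor differences ran from -0.16 to 0.14 with a median of 0.00, and the sensory differences from -0.14 to 0.17 with a median of -0.01. The median over all genes was -0.01 in motor and 0.00 in sensory cortex. That of the 4 immune genes was 0.47 (SD between EAE mice 0.44) and 0.69 (SD 0.42). The 4 were not alike: in motor cortex Psmb10 was at -0.01, Psme1 at 0.17, Psmb8 at 0.77 and Psmb9 at 0.81. In sensory cortex they were at 0.03, 0.24, 1.13 and 1.15, so no gene lay near the immune median. In each region the 95% interval lay wholly within 0.25 log2 units of 0 for 32 of the 38. By role, the medians of the alpha ring (8 genes) were 0.01 and 0.04, of the remaining beta ring (8) 0.02 and 0.01, of the ATPases (6) -0.01 and -0.03, and of the other cap subunits (11) -0.02 and -0.02. In sensory cortex 8 of the 11 cap subunits were below 0 and 6 of the 8 alpha genes above it, where 50.3% of all genes were above 0. In motor cortex the counts were 7 of 11 below and 5 of 8 above, where 46.9% of all genes were above 0. In each case 0 were called and 0 or 1 had an unadjusted p under 0.05 by limma.

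**Figure D2:**
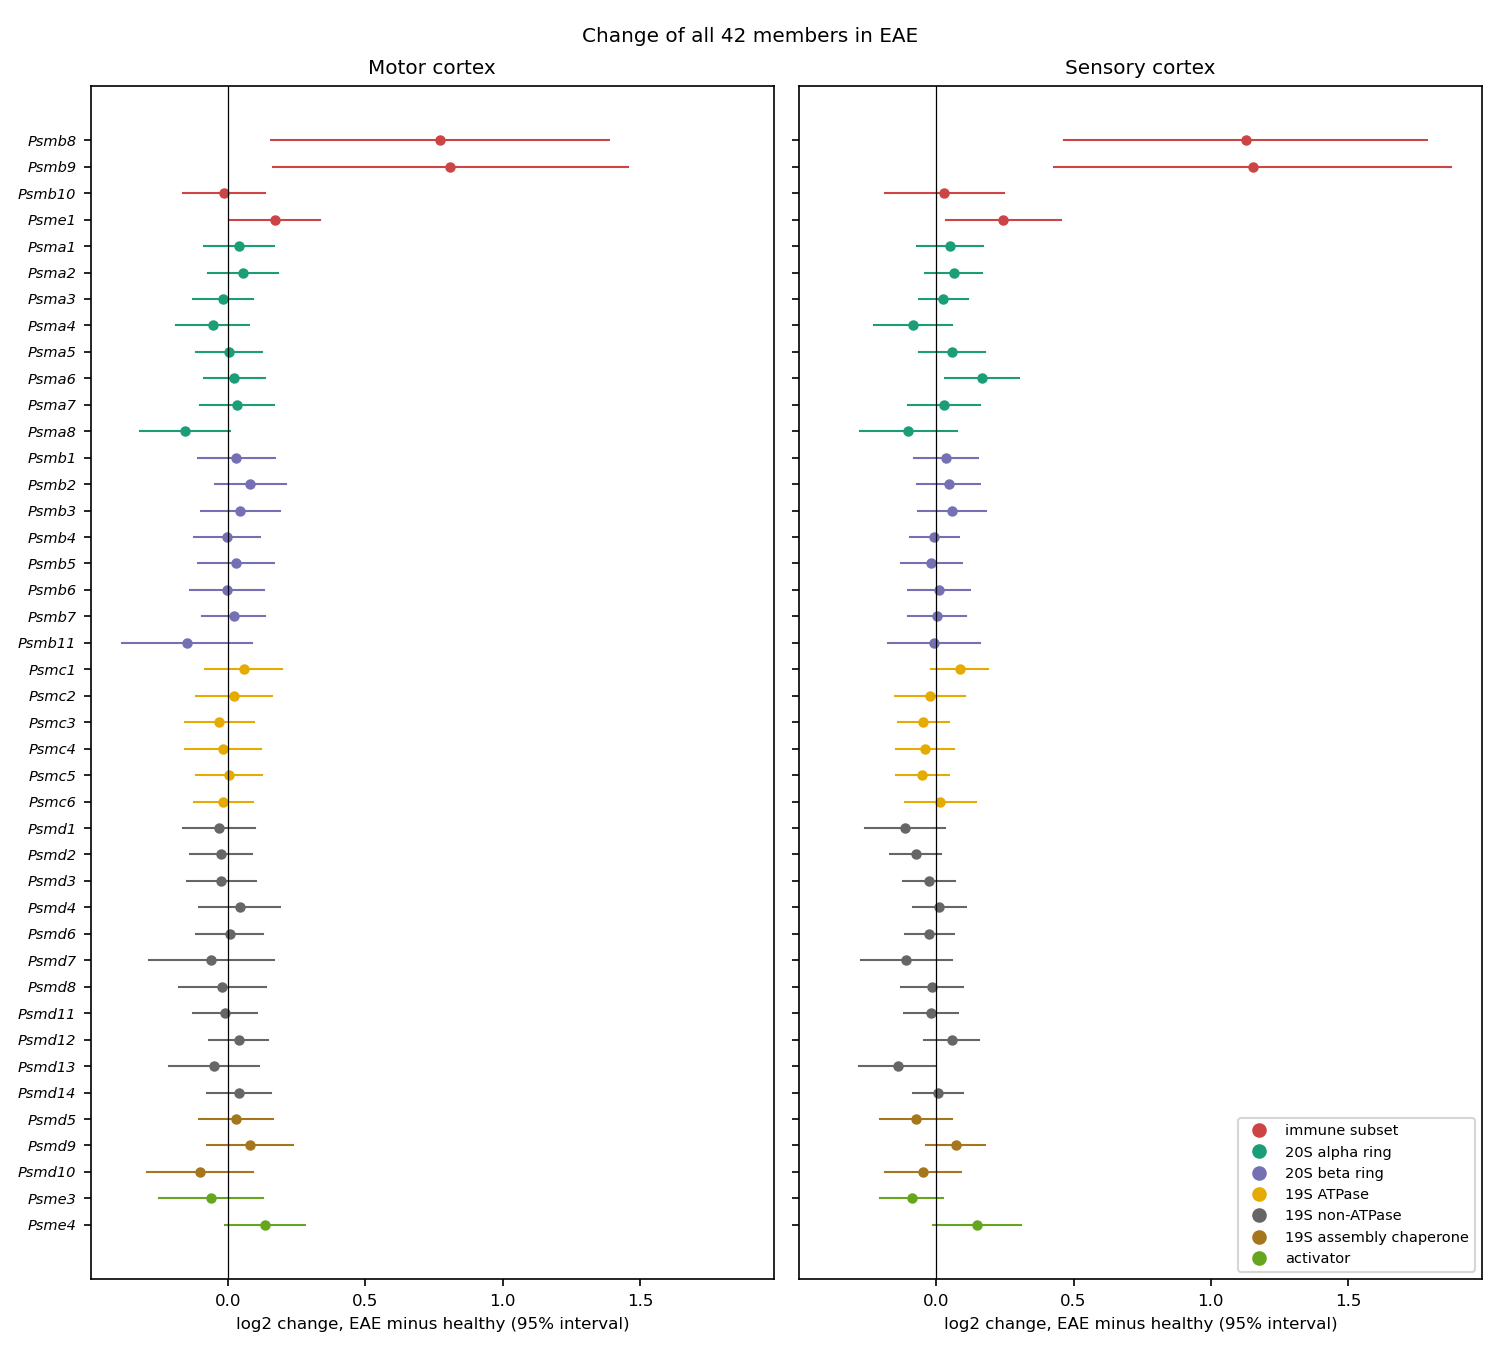
Log2 difference, EAE minus healthy, of all 42 subunits in motor (left) and sensory cortex (right), ordered and coloured by role, with points for limma estimates and lines for 95% intervals. Psmb8 and Psmb9 stand apart at 0.77 and 0.81 in motor and 1.13 and 1.15 in sensory cortex, and the 38 other subunits lie between -0.16 and 0.17.

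Among the other subunits, the highest motor difference was that of Psme4 (PA200, an activator of the core that works without ubiquitin), at 0.14 ± 0.07 (SE; limma's adjusted p = 0.347). It was followed by Psmb2 at 0.08 and the cap chaperone Psmd9 at 0.08. The lowest were Psma8, the alpha subunit of the testis, at -0.16, Psmb11, the catalytic subunit of the thymus, at -0.15, and the chaperone Psmd10 (gankyrin) at -0.10. Psma8 and Psmb11 were dim, with means of 6.67 and 6.47, below the medians of the arrays.

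In sensory cortex the highest were Psma6, a subunit of the alpha ring, at 0.17 ± 0.06 (SE; limma's adjusted p = 0.175), Psme4 at 0.15 ± 0.07 (limma's adjusted p = 0.306) and the ATPase Psmc1 at 0.09. The lowest were Psmd13 at -0.14 ± 0.06 (limma's adjusted p = 0.276), the large scaffold subunit Psmd1 at -0.11 and Psmd7, the partner of the deubiquitinase Psmd14, at -0.11. Psmd2, the other large scaffold of the cap, ran from 12.83 to 12.92 in the 6 EAE sensory arrays and from 12.93 to 12.97 in the 4 healthy ones. The groups did not overlap although they differed by only -0.07 ± 0.04 (limma's adjusted p = 0.376). No overlap with EAE above healthy was found in sensory cortex for 2 of 42 subunits, Psmb8 and Psmb9 (4.76%, against 2.45% of all genes), and with EAE below for Psmd2 alone (2.38%, against 4.04%). In motor cortex no subunit of the 42 was free of overlap, against 1.48% of all genes above and 4.19% below.

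Psme4 read 11.56, 11.81, 11.80, 11.73, 11.88 and 11.74 in the motor cortex of EAE mice 1 to 6 and 11.65, 11.66, 11.64 and 11.53 in healthy mice. In each region 5 of 6 EAE arrays were above every healthy array, all except mouse 1 in motor and mouse 6 in sensory cortex. In sensory cortex the EAE values ran from 11.60 to 12.00 and the healthy values from 11.62 to 11.72. All 6 of its probe sets had positive differences in both regions, from 0.05 to 0.22 in motor and 0.07 to 0.34 in sensory cortex, none of them called. Psme3, the nuclear activator PA28 gamma, was at -0.06 ± 0.09 (SE) and -0.09 ± 0.05 (limma's adjusted p = 0.782 and 0.39). Its EAE range of 10.52 to 11.04 enclosed the healthy range of 10.83 to 10.93 in motor cortex. The 46 further probe sets of the subunits gave 0 calls by limma in either region, against 0.714% of all 45101 probe sets in motor and 0.576% in sensory cortex. At an unadjusted p under 0.05 limma gave 3 of the 46 in motor (6.52%, against 12.1% of all probe sets) and 7 in sensory cortex (15.2%, against 15.2%), shares at or below those of all probe sets. The second probe set of Psmb8 was dim, at a mean of 5.08, and differed by 0.11 ± 0.10 and 0.28 ± 0.10.

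With the regions averaged so that each mouse counted once, limma called 0 of 42 subunits, against 7.87% of all genes, and 6 (14.3%, against 25.9%) had an unadjusted p under 0.05. These were Psmb9 at 0.98 ± 0.30 (SE; limma's adjusted p = 0.0748), Psmb8 at 0.95 ± 0.28 (limma's adjusted p = 0.0641), Psme1 at 0.21 ± 0.07 (limma's adjusted p = 0.0977), Psme4 at 0.14 ± 0.06, Psma6 at 0.10 ± 0.04 and Psma8 at -0.13 ± 0.05. The averaged Psmb8 difference passed without EAE mouse 1 (1.06, limma's adjusted p = 0.0429) and without EAE mouse 3 (1.07, limma's adjusted p = 0.0445). Psmb9 passed without mouse 1 (1.10, limma's adjusted p = 0.0492). Over all genes limma called 1813 without mouse 1 and 1335 without mouse 3, against 1431 with all mice.

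The EAE mice were unequal, and Psmb8 and Psmb9 had the highest SDs of the 42 subunits between EAE arrays, 0.69 and 0.77 in motor and 0.65 and 0.72 in sensory cortex. The SD of the EAE arrays was 3.69 times that of the healthy arrays for Psmb8 and 7.27 times for Psmb9 in motor cortex, and 4.92 and 11.7 times in sensory cortex. In motor cortex the ratio of Psmb8 was exceeded by 8 of the 38 other subunits, up to 5.59 for Psmc1, whose SD was 0.13 in EAE and 0.02 in healthy mice. The median of this ratio over the 4 immune genes was 4.85 in motor and 3.11 in sensory cortex. Over the 38 other subunits it was 1.93 and 0.81, and over all genes 1.40 and 1.20.

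In the mean of the regions, the immune genes shared the order of the 3 highest mice. Averaged over the regions and set against the healthy mean, Psmb8 stood at 0.42, 1.69, 0.36, 0.85, 1.80 and 0.58 in EAE mice 1 to 6, and Psmb9 at 0.34, 1.66, 0.36, 0.90, 2.04 and 0.60. Psme1 stood at 0.03, 0.31, 0.02, 0.26, 0.46 and 0.16. Psmb10, whose group differences were close to 0, stood at -0.08, 0.13, -0.15, 0.08, 0.15 and -0.08. In these averages mice 5, 2 and 4 were thus the 3 highest, in that order, for all 4 immune genes. Psmb9 kept the order in each region, and Psmb8 in motor cortex. In motor cortex Psme1 was higher in mice 4 and 6 (11.55 and 11.39) than in mouse 2 (11.37), and Psmb10 was highest in mouse 4. In sensory cortex mouse 2 was highest for Psmb8, Psme1 and Psmb10, and for Psmb8 mouse 1 (9.56) exceeded mouse 4 (9.51). The averaged order was found in 114 of all 18194 genes (0.627%). It was found in 0 of the 38 other subunits, a count that so low a share would also give. The order was picked out from the immune genes after these values were seen. The averaged order followed the clinical grades only in part. Mice 1 and 3, with the lowest grades of 2.50 and 2.75, were the 2 lowest for Psmb8, Psmb9 and Psme1. Mice 2 and 4, both graded 3.00, lay between mice 5 and 6 for these genes. Mice 5 and 6 shared the highest grade, 3.50, but for Psmb8 mouse 6 stood at 0.58 and mouse 5 at 1.80. A relation to grade was not tested.

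**Figure D3:**
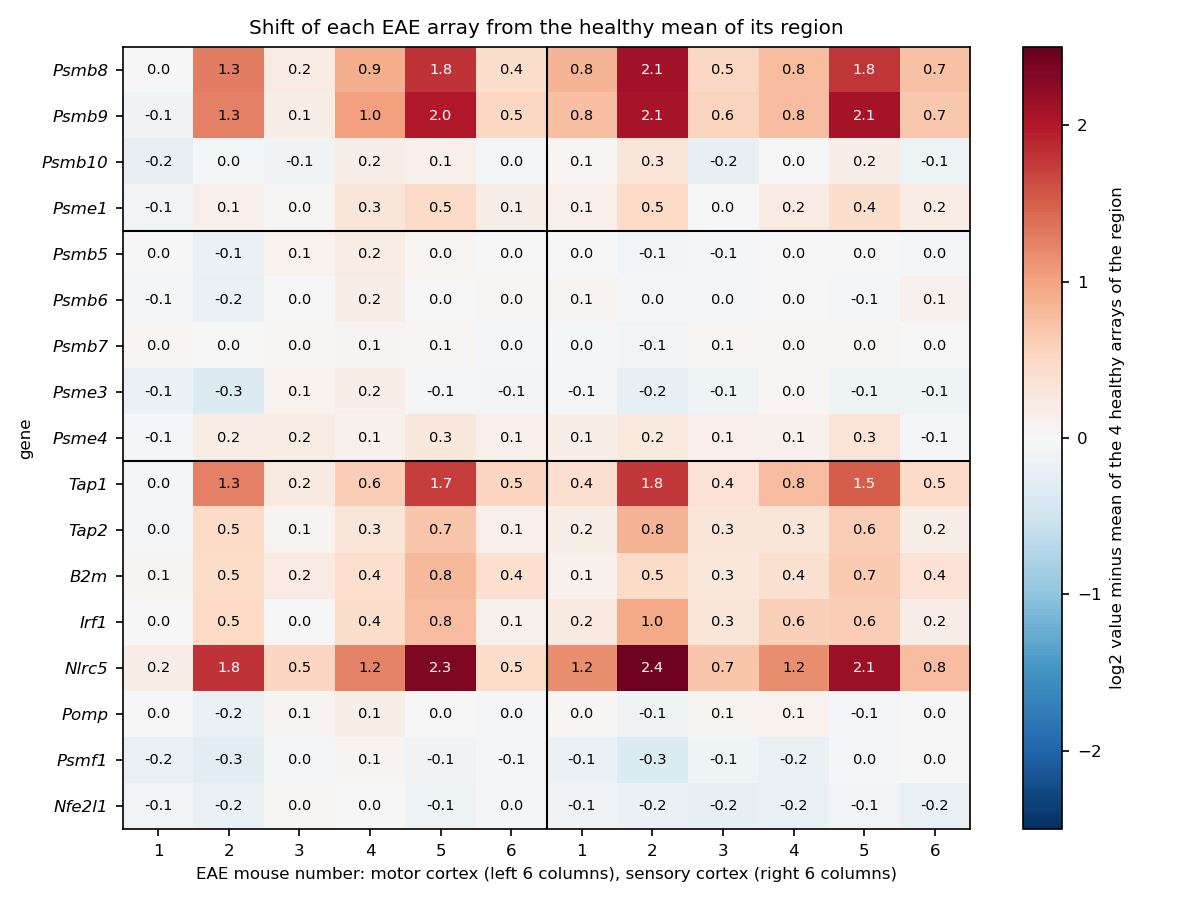
Log2 value of each EAE array minus the mean of the 4 healthy arrays of its region, for the immune genes (top block), other subunits (middle block) and pathway genes (bottom block), in motor (left 6 columns) and sensory cortex (right 6 columns). Mice 2 and 5 carry the darkest red for Psmb8, Psmb9, Tap1 and Nlrc5 in both regions, and the middle block stays pale.

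Between the regions, no subunit passed the test. The EAE effect in motor minus that in sensory cortex was -0.35 ± 0.17 (SE; 10 mice) for Psmb8 and -0.34 ± 0.16 for Psmb9, both with limma's adjusted p = 1, and lay between -0.14 and 0.10 for the 38 other subunits. It was -0.68 and -0.74 within cohort 1 and -0.03 and 0.06 within cohort 2, for Psmb8 and Psmb9 in that order, so it rested on the first cohort. Limma called 0 of 42 subunits and 0% of all genes for this difference, and at an unadjusted p under 0.05 it gave 0 subunits and 2.32% of all genes. In healthy mice limma called 0 of 42 between motor and sensory cortex, against 7.35% of all genes, and 1 subunit, Psme1, had an unadjusted p under 0.05 (2.38%, against 20.5%), at 0.14 ± 0.05 higher in motor cortex (limma's adjusted p = 0.174). In EAE mice it called 0 of 42, against 4% of all genes, and 3 had an unadjusted p under 0.05 (7.14%, against 15.2%). These were Psmb9 at -0.34 ± 0.14 and Psmb8 at -0.31 ± 0.13, both lower in motor cortex (limma's adjusted p = 0.282 and 0.291), and Psmd5 at 0.14 ± 0.06 (limma's adjusted p = 0.322). Of the 38 other subunits, 30 were above 0 in healthy and 29 in EAE mice, where 60.1% and 56.3% of all genes were.

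The wider pathway was read from lists of its genes. Of the 16 measured genes for assembly, regulators and associated proteins, limma called 0 in either region, against 2.25% and 2.41% of all genes. Their medians were -0.03 and -0.04. Pomp, the chaperone of core assembly, was at 0.00 ± 0.06 (SE) in motor and 0.01 ± 0.05 in sensory cortex. The inhibitor Psmf1 was at -0.09 ± 0.07 and -0.13 ± 0.07, and Nfe2l1, the factor that raises proteasome gene transcription, at -0.06 ± 0.06 and -0.14 ± 0.05 (limma's adjusted p = 0.671 and 0.19). Of 10 measured genes for ubiquitin supply and shuttles, 0 were called in either region. In the mean of the regions, where limma called 7.87% of all genes, 1 of the 10 was called. This was the shuttle factor Ubqln4, which fell by 0.17 ± 0.04 (limma's adjusted p = 0.0297).

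Downstream of the immunoproteasome, class I peptide loading had 11 measured genes. Limma called 2 higher and 0 lower in motor cortex and 3 higher and 0 lower in sensory cortex, beside the 2.25% and 2.41% of all genes called in either direction. The list medians were 0.23 and 0.38. The class I heavy chains H2-K1 and H2-D1 rose by 0.91 ± 0.21 (SE) and 0.79 ± 0.16 in motor cortex (limma's adjusted p = 0.0404 and 0.0265) and by 1.05 ± 0.18 and 0.79 ± 0.13 in sensory cortex (limma's adjusted p = 0.0238 and 0.0202). B2m, the light chain, rose by 0.38 ± 0.08 in sensory cortex (limma's adjusted p = 0.0491) and was at 0.39 ± 0.10 in motor cortex (limma's adjusted p = 0.0752). Tap1, which carries proteasome peptides into the endoplasmic reticulum and starts beside Psmb9, was at 0.72 ± 0.28 and 0.88 ± 0.28 without passing (limma's adjusted p = 0.232 and 0.13), and its partner Tap2 at 0.27 ± 0.12 and 0.40 ± 0.13. The chaperones of class I folding did not share the positive values in sensory cortex: Pdia3 at -0.23 ± 0.06 (limma's adjusted p = 0.0638), Calr at -0.14 ± 0.06 (limma's adjusted p = 0.251) and Canx at -0.002 ± 0.052. In EAE mice 1 to 6 the averaged Tap1 value was 0.19, 1.52, 0.29, 0.69, 1.62 and 0.51 above the healthy mean, and mice 5, 2 and 4 again led.

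Of 14 measured genes for interferon induction, limma called 0 in motor and 1 in sensory cortex, against 2.25% and 2.41% of all genes. In sensory cortex the interferon gamma receptor chain Ifngr2 fell by 0.26 ± 0.06 (SE; limma's adjusted p = 0.0423). In the mean of the regions limma called 1 of the 14 higher and 1 lower, against 7.87% of all genes in either direction. Nlrc5, the transactivator of class I and immunoproteasome genes, rose by 1.24 ± 0.33 (limma's adjusted p = 0.045). The interferon receptor chain Ifnar1 fell by 0.18 ± 0.04 (limma's adjusted p = 0.0312). The factor Irf1 was at 0.30 ± 0.14 and 0.48 ± 0.14 in the single regions (limma's adjusted p = 0.301 and 0.113). Among 8 measured ubiquitin-like modifier genes none was called in a single region, against 2.25% and 2.41% of all genes. So few genes would mostly give none at those shares. In the mean of the regions 1 of the 8 was called, against 7.87% of all genes. This was Usp18, which removes the modifier ISG15 from proteins and rose by 0.97 ± 0.26 (limma's adjusted p = 0.047). Adrm1 is not given a value because no probe set carries its symbol alone.

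Markers of the cells that could carry the immune genes were measured on the same arrays. The mean of the 10 microglia and macrophage markers ranged from 10.00 to 10.51 in EAE and 10.21 to 10.33 in healthy motor cortex, and from 9.92 to 10.70 and 10.11 to 10.29 in sensory cortex. Limma called 0 of them higher and 1 lower in motor cortex, where Itgam fell by 0.46 (adjusted p = 0.0464), and 1 higher and 0 lower in sensory cortex, where C1qb rose by 0.60 (adjusted p = 0.0496). The median difference of the list was 0.07 in motor and 0.28 in sensory cortex, with values on both sides of 0. In sensory cortex C1qa was at 0.56, C1qc at 0.47, Ptprc at 0.42 and Aif1 at 0.38, and Cx3cr1 was at -0.71 and Itgam at -0.36. The mean of the 6 measured T cell markers ranged from 7.31 to 7.44 in EAE and 7.20 to 7.33 in healthy motor cortex and from 7.30 to 7.72 and 7.12 to 7.36 in sensory cortex, with 0 called. The endothelial list (5 measured) had 1 gene called lower in motor and 2 in sensory cortex. The counts of all these lists stand beside 2.25% of all genes called in motor and 2.41% in sensory cortex. The part of these cells in the values of Psmb8 and Psmb9 was not tested.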

How the data were processed

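Per the submitters' processing notes, RMA and Partek were used, with versions and order not given in the sources used here. The authors' deposited values are log2 expression per probe set, between 3.79 and 15.07. Of 45101 probe sets, 34958 carry 1 gene symbol, 932 several and 9211 none in the platform table. 34754 matched RefSeq by Entrez number and 0 symbols changed. The brightest probe set stood for each gene. Differences came from lmFit and eBayes of limma 3.58.1 (R 4.3.3), two-sided with cohort as covariate, adjusted over 18194 genes, and the mouse was a block between regions. Tests were checked on simulated data. P-values rest on separate animals, except in the 1 fit over 20 arrays. That fit took both arrays of each of the 10 mice, with 1 common correlation between arrays of the same mouse.

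Subunits and lists were chosen with earlier results of these data known. Described in full were the immune subset, Psmb5, Psmb6, Psmb7, Psme3, Psme4, any subunit called, and the 3 highest and 3 lowest others per region. Psmd2 and Psmd5 were added after their values were seen.

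Regions of 1 mouse are paired by animal. Their deviations from group means correlated by -0.058 to 0.589. EAE and healthy mice that share a number are different animals (-0.283 to 0.454). Alternatives covered normalization, probe set choice, dim genes, variance trend, cohort, processing day, block and each mouse left out.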

Additional observations from a re-analysis of the deposited data

Results flagged for a closer look

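In 11 of 168 sets of values (42 subunits in 4 groups), 1 array lay far from the rest of its group by Dixon's criterion, where chance flags about 1 in 20. None of the 11 was of an immune gene. In healthy sensory cortex, mouse 2 was lowest for Psmb6 at 12.38 (next 12.49), Psmd6 at 12.70 (next 12.78) and Psmd13 at 10.83 (next 11.05), and mouse 4 was lowest for Psma3 at 13.14 (next 13.18). In healthy motor cortex, mouse 2 was lowest for Psmb2 at 12.38 (next 12.46), mouse 4 was lowest for Psme4 at 11.53 (next 11.64) and highest for Psmd8 at 12.56 (next 12.34), and mouse 1 was highest for Psmd6 at 12.86 (next 12.78). The motor array of healthy mouse 4 was processed on the second day. In EAE sensory cortex, mouse 6 was lowest for Psmd1 at 11.96 (next 12.16), mouse 3 was lowest for Psmd5 at 10.15 (next 10.33) and mouse 5 was highest for Psmd7 at 11.62 (next 11.35).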

How the results depend on the processing

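The mouse number was also used as a replicate block in place of the cohort, although it joins different animals. Limma then called 1 subunit in motor cortex (Psmb8 at 0.60, adjusted p = 0.0341). It called 1 in the mean of the regions (Psmb8 at 0.83, adjusted p = 0.0482) and 0 in sensory cortex. Over all genes it called 389, 919 and 5 in that order, against 410, 1431 and 438 in the main fits. The 0 subunits called in sensory cortex became 1 with the mean of probe sets and 1 with dim genes left out. They became 2 with the variance trend, 2 with 1 fit over 20 arrays, and 0 to 1 with each mouse left out. Over all genes the sensory calls were 438 in the main fit and 411 with the mean of probe sets. They were 795 among fewer genes with dim genes left out, 831 with the variance trend and 1015 with 1 fit. With each mouse left out they ran from 19 to 1009. In the mean of the regions the 0 called became 1 with quantile normalization (Psma8 at -0.16, limma's adjusted p = 0.0446). They became 1 with dim genes left out, 1 with the variance trend, and 0 to 2 with each mouse left out. Over all genes, 1431 were called there in the main fit, 1053 after quantile normalization and 1657 with the variance trend. With dim genes left out 1401 of fewer genes were called, and with each mouse left out 472 to 1813. With dim genes left out Psmb9 was not tested, and the immune median in sensory cortex was 0.24. Psmb8 was kept by this filter only because its EAE arrays counted in the mean. Psmb8, Psmb9, Psme1 and Psme4 kept a positive EAE difference in each region under every alternative run for them. Psmb8 and Psmb9 changed sign in 1 setting each between regions in healthy mice, and the difference of the EAE effect between regions changed sign for Psmb9 in 1, within cohort 2. With 100 bases before the start in place of the 300-base window, the response element core was in 1 subunit promoter of 35 (2.86%, against 1.14% of all genes), the GAS motif in 1 (2.86%, against 3.0%), the antioxidant element core in 3 (8.57%, against 5.5%), CCAAT in 9 (25.7%, against 21.6%), the NRF1 core in 4 (11.4%, against 2.95%) and the NF-kB letters in 14 (40.0%, against 30.2%). The cause of these shifts was not tested, and the number of arrays and the brightness of the probe sets limit what could be seen.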
